A study of Mus musculus with 12 samples.

Results

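The genes described here are 48 splicing factors, chosen by name from the 13552 genes measured in mouse hearts. They are 10 serine/arginine-rich (SR) proteins, whose gene names are Srsf and a digit, the SR-like factors Tra2a and Tra2b, 4 CLK kinases, 3 SRPK kinases, 20 genes whose names begin with Hnrnp (heterogeneous nuclear ribonucleoproteins, hnRNPs), and 9 tissue regulators, namely Rbm20, Rbm24, Mbnl1, Mbnl2, Celf1, Celf2, Rbfox1, Rbfox2 and Ptbp1. The study asked how hearts that cannot phosphorylate Bcl-xL, an anti-apoptotic protein encoded by Bcl2l1, at serine 14 respond to acute pressure overload. Young adult male C57BL/6 mice (C57BL/6J in the methods of the study), either wild-type (WT) or homozygous for the Bcl-xL S14A knock-in (KI), underwent transverse aortic constriction (TAC), which narrows the aorta and raises the load on the left ventricle, or sham surgery, and hearts were taken after 9 hours. Genotype and surgery thus made 4 groups, called WT sham, KI sham, WT TAC and KI TAC, with 3 mice in each and 12 in all. The KI line carries the mutation in every cell. It was made through embryonic stem cells, with the selection cassette removed by a CMV-Cre mouse, and was backcrossed. The methods state that WT mice were purchased and do not say whether any of the hearts compared came from littermates.

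SR proteins bind exons of pre-mRNA and help the spliceosome to recognise them, and their arginine-serine tails are phosphorylated by SRPK kinases in the cytoplasm and by CLK kinases in the nucleus. The hnRNPs coat nascent transcripts and often oppose exon inclusion. In the heart, RBM20 represses exons of titin and of calcium-handling genes, RBM24 promotes exons of muscle genes, and RBFOX, MBNL, CELF and PTBP1 proteins shift splicing between immature and mature patterns. Many of these factors hold down their own level through exons with a premature stop codon, whose inclusion sends the transcript to nonsense-mediated decay.

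In GENCODE release M21 of the mouse genome build GRCm38, 30 of the 48 splicing factors (62.5%) had an annotated transcript subject to nonsense-mediated decay, against 28.6% of 10627 protein-coding genes tested. The share was 11 of 12 for SR proteins and Tra2, 6 of 7 for the kinases, 10 of 20 for the hnRNPs and 3 of 9 for the tissue regulators. A retained-intron transcript was annotated for 37 of 48 members (77.1%) and for 59.4% of the protein-coding genes. The members were also longer, with a median of 6210 exonic bases against 4448. In 9 members, 7 of them SR proteins or Tra2, an exon of a decay transcript overlapped no exon of the protein-coding transcripts and held the annotated stop codon. The stretch from the start of that exon to the stop codon (in capitals) is shown for the related factors Tra2b and Tra2a, whose RNA levels lay on opposite sides of their sham values in KI TAC hearts, and for the SR proteins Srsf3 and Srsf7. Read on the strand of the gene, these stretches were chr16:22259181-22259261 (minus strand) in a 276-base exon of Tra2b-206, chr6:49252965-49253108 (minus strand) in a 306-base exon of Tra2a-202, chr17:29039454-29039487 (plus strand) in a 456-base exon of Srsf3-201 and chr17:80205054-80205081 (minus strand) in a 460-base exon of Srsf7-203.
Tra2b: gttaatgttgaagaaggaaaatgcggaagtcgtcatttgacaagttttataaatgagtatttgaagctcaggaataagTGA
Tra2a: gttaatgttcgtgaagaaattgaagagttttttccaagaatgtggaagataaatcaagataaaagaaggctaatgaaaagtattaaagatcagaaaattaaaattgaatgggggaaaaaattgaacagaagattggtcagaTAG
Srsf3: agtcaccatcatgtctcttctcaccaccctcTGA
Srsf7: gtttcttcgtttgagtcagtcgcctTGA

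The deposited table gives 1 value per gene, so the inclusion of these exons was not measured, and a value below holds productive and decay transcripts together.

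Promoter sequences of RefSeq (GRCm38.p6, 250 bases before to 50 after the start site) matched 43 of the 48 members, 10 of them with several promoters. The E-box CACGTG, which reads the same on both strands, was found in 8 of 43 members (18.6%) and in 12.2% of 8689 tested genes with a promoter. It was present in 5 of the 15 members that passed the test in any comparison, Hnrnpa3, Hnrnpd, Hnrnpf, Hnrnph2 and Ptbp1. Windows around it are printed for the 4 of these whose window lies before the start site, with the motif in capitals. They are chr2:75659219-75659258 (plus strand) for Hnrnpa3, chr5:99978943-99978992 (minus strand) for Hnrnpd, chr6:117907703-117907752 (plus strand) for Hnrnpf and chr10:79854365-79854414 (plus strand) for Ptbp1.
Hnrnpa3: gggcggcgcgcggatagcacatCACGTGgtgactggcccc
Hnrnpd: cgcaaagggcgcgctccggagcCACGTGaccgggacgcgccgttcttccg
Hnrnpf: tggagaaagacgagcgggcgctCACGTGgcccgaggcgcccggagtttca
Ptbp1: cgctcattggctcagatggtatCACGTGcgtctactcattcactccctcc

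The motif lay 18 bases before the start site in Hnrnpa3, 32 in Hnrnpd, 79 in Hnrnpf and 45 in Ptbp1. The core of the heat shock element, GAANNTTC on either strand, was found in 7 of 43 members (16.3%) and in 6.78% of tested genes, and in 5 of the 15 members that passed the test, Celf2, Hnrnpa2b1, Hnrnpf, Rbfox1 and Tra2b. The ETS motif CCGGAAGT was found in 5 members (11.6%) against 9.13% of tested genes, and the cyclic AMP response element TGACGTCA in 2 members (4.65%) against 3.52%. These are matches of letters only, and binding was not measured.

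Levels are given in RPKM, reads per kilobase of exon after scaling each library to its depth, a unit per length that can be compared between genes. Each library held 23652860 to 32455277 reads on genes, and mitochondrial transcripts took 6.36% of them in WT sham mouse 1 and 9.76% to 12.5% in the others. All 8 cardiomyocyte markers were detected in every heart, whereas none of the skeletal muscle, adipocyte or lymphocyte markers is listed in the table. The mutation replaces 1 codon, so the level of Bcl2l1, which was 6.59 to 19.1 RPKM in the hearts of the WT mice and KI sham mice and 24.5 to 37.0 RPKM in KI TAC hearts, does not check the genotype labels. The labels name separate mice, and in whole hearts fewer cells of a type and less RNA per cell cannot be told apart.

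All 48 members were detected in every heart, with means over the 12 mice from 0.682 RPKM for Hnrnpr to 133 RPKM for Hnrnpa0. In all, 47 reached 1 RPKM in at least 3 mice and were tested, and Hnrnpr, at 0.509 to 1.04 RPKM, was not. Between the lowest and the highest mouse the 47 members differed from 1.30-fold (Celf1) to 7.32-fold (Rbfox1). Values of single mice are given below in the order of their numbers, which are 1, 2 and 3 for both sham groups, 7, 9 and 10 for WT TAC, and 5, 6 and 7 for KI TAC. Positions are those of GRCm38.

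**Figure D1:**
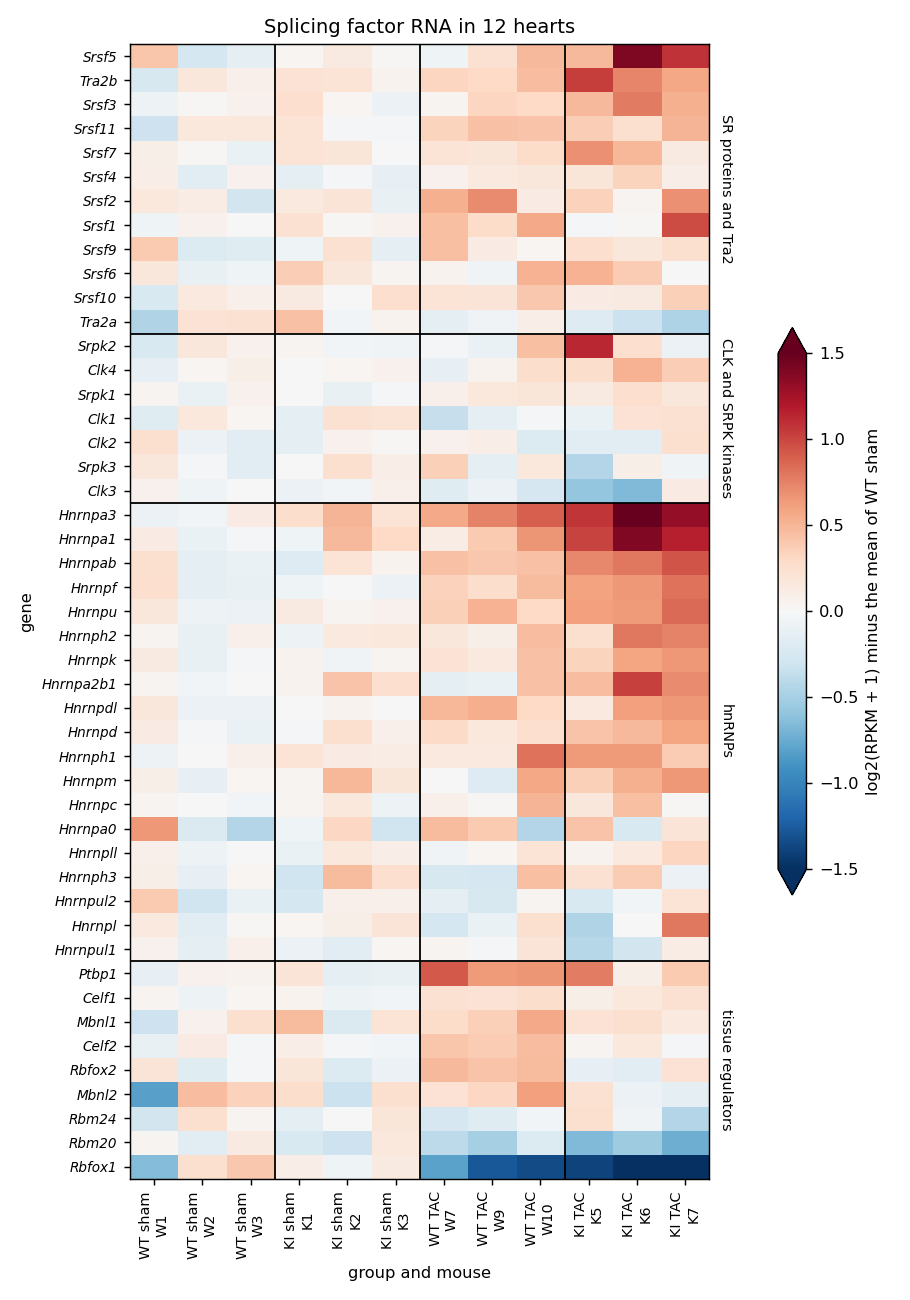
Level of each of 47 splicing factors (rows, by family) in each of 12 hearts (columns, by group), as log2(RPKM + 1) minus the mean of the WT sham hearts; red is higher and blue lower. The TAC columns are red for most hnRNPs, most strongly in KI TAC hearts, and Rbfox1 is blue in all 6 TAC hearts.

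The comparisons below place the members against TAC or genotype, each tested with limma on log2(RPKM + 1) across 11240 genes with Benjamini-Hochberg adjustment and called at an adjusted p under 0.05. In response to TAC in WT hearts, 3 members rose and 1 fell, where 6.96% of all genes tested rose and 4.60% fell. In response to TAC in KI hearts, 11 of 47 members (23.4%) rose and 1 fell, where 8.57% of all genes rose and 14.7% fell. Between KI TAC and WT TAC hearts, 3 members were higher in KI and 0 lower, against 2.92% and 8.13% of all genes. The share of members that rose in WT hearts, 6.38%, was thus near the background, whereas the share in KI hearts was above it. Between the genotypes after TAC, 6.38% of members were higher, but these were 3 members, and 0 to 4 when each mouse was left out. In either direction 11.0% of all genes were called there, a larger share than of the members. The log2 fold change was above 0 for 37, 38 and 29 of the 47 members in the order of these comparisons, and its median was 0.22, 0.22 and 0.08, beside 0.04, -0.10 and -0.12 over all genes.

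The scale matters for these counts. After median-ratio scaling, which puts the typical gene at an equal level in every heart, the median over all genes moved from -0.10 to 0.03 in KI hearts and from -0.12 to 0.03 between the genotypes after TAC, and the shares of all genes that rose and fell in KI hearts became 13.8% and 11.3%. The counts of members became 17 higher and 1 lower in KI hearts, 13 higher and 0 lower between KI TAC and WT TAC (where 6.70% of all genes were higher and 4.74% lower), and 2 higher and 1 lower in WT hearts (where 6.48% were higher and 6.42% lower). After quantile normalization the members were 16 higher and 1 lower in KI hearts (12.1% and 12.9% of all genes), 9 higher and 0 lower between the genotypes after TAC (4.65% and 5.45%) and 2 higher and 1 lower in WT hearts (6.68% and 7.20%). The values below are on the deposited scale. The groups WT TAC and KI TAC enter several comparisons, so the counts are not independent of one another.

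**Figure D2:**
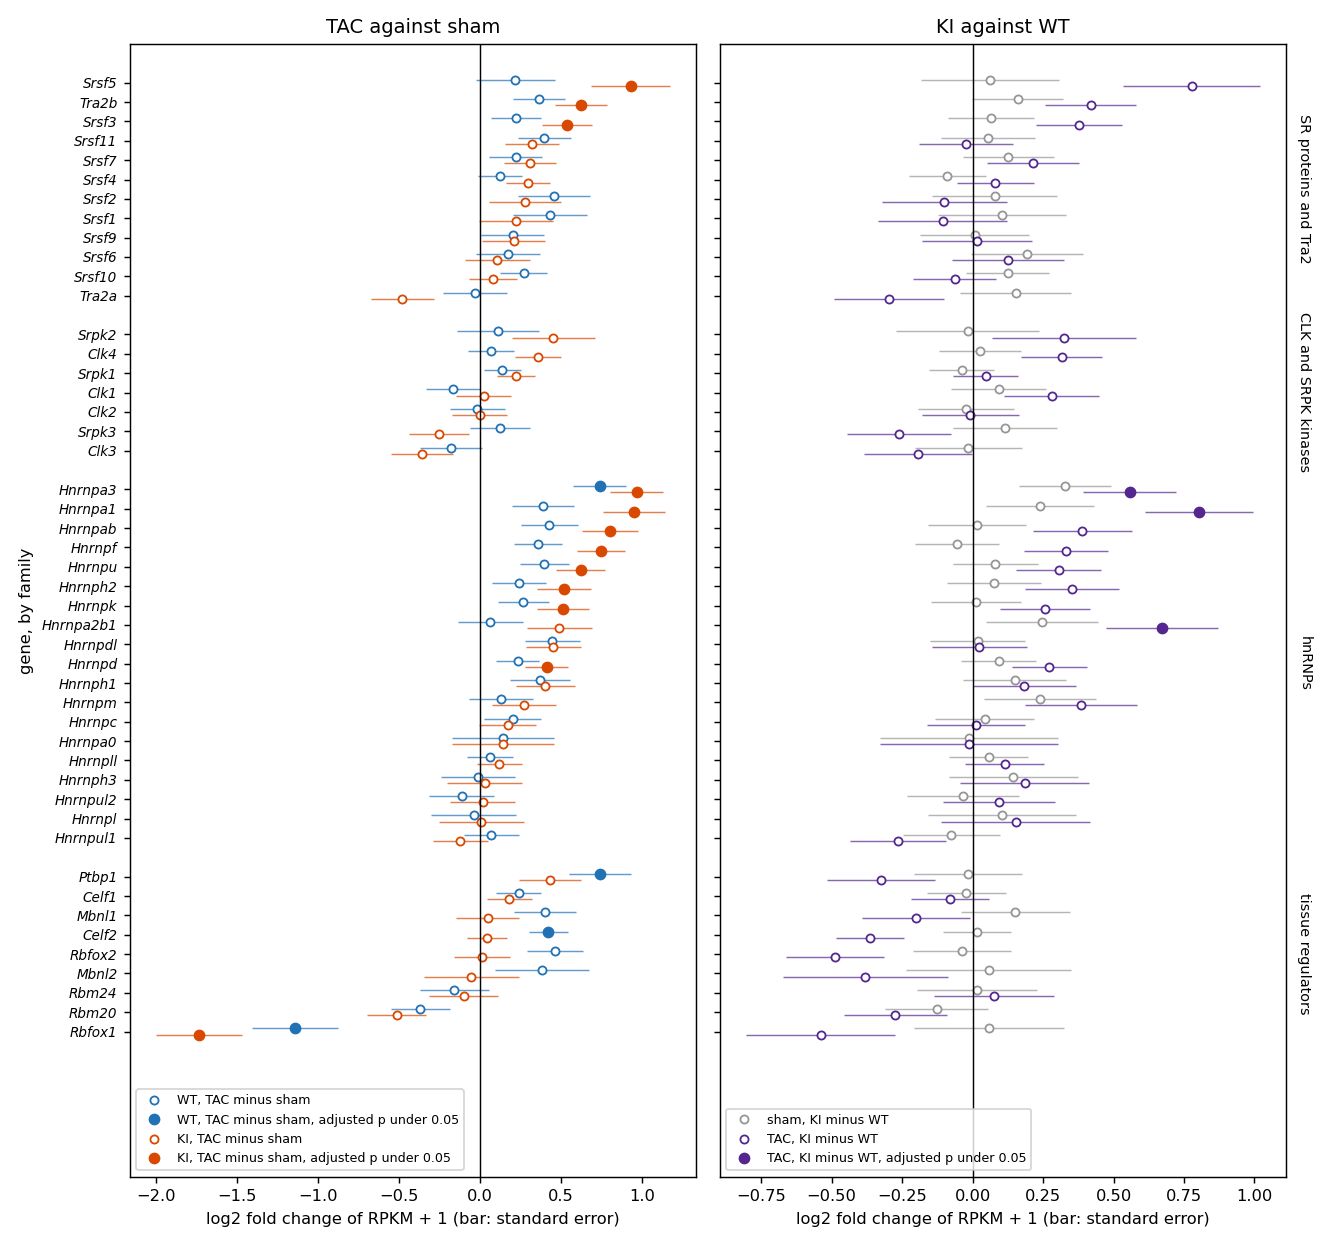
Log2 fold change of RPKM + 1 (points, with the standard error as bars) of 47 splicing factors by family, for TAC against sham within each genotype (left) and for KI against WT after each surgery (right). Filled points have an adjusted p under 0.05; 8 of the 11 filled points on the higher side in KI hearts are hnRNPs, and no point is filled for KI sham against WT sham.

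Among the SR proteins and Tra2, TAC raised Srsf5, Srsf3 and Tra2b in KI hearts. Of the 12 genes in this family, 3 rose and 0 fell in KI hearts, where 8.57% of all genes rose and 14.7% fell, and 0 passed in WT hearts or between the genotypes after TAC, where 2 and 3 of them had an unadjusted p under 0.05, against 27.9% and 30.3% of all genes. As a family they had a median log2 fold change of 0.22 in WT hearts and 0.29 in KI hearts, with 11 of 12 genes above 0 in each. Between the genotypes after TAC it was 0.05, and 0.22 after median-ratio scaling. Both Srsf5 and Srsf3 were called for KI TAC against WT TAC, and Srsf4 in KI hearts, after median-ratio scaling and after quantile normalization.

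Srsf5, first described as an insulin-induced gene and located at chr12:80945504-80950507, stood at 11.6, 12.6 and 11.6 RPKM in KI sham hearts and at 16.4, 31.8 and 25.3 RPKM in KI TAC hearts. In WT hearts it was 15.5, 9.34 and 10.1 RPKM after sham surgery and 10.8, 13.5 and 16.4 RPKM after TAC. The KI groups did not overlap and the WT groups did, and the log2 fold change was 0.93 (SE 0.24, adjusted p = 0.0149) in KI hearts and 0.22 (SE 0.24) in WT hearts. KI TAC exceeded WT TAC by 0.78 (SE 0.24), just outside the threshold (adjusted p = 0.0549), and this difference was called without KI TAC mouse 5, its lowest heart of that group (1.03). The call in KI hearts was lost when KI sham mouse 3 or its highest heart, KI TAC mouse 6, was left out, with a highest adjusted p of 0.0662.

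Tra2b, a splicing activator related to SR proteins (chr16:22244549-22266005), was the other member of this family past 0.6 on the log2 scale. Its level was 3.42, 3.41 and 2.97 RPKM in KI sham hearts and 6.82, 5.34 and 4.70 RPKM in KI TAC hearts, a log2 fold change of 0.62 (SE 0.16, adjusted p = 0.0141). WT hearts held 2.23, 3.29 and 3.00 RPKM after sham surgery and 3.78, 3.69 and 4.27 RPKM after TAC, also without overlap but short of the threshold (0.36, SE 0.16, adjusted p = 0.159). Leaving out KI sham mouse 3 or mouse 5 of the KI TAC group removed the KI call, with an adjusted p of at most 0.0671. Its paralog Tra2a lay on the other side of 0, at 5.46, 3.64 and 3.94 RPKM in KI sham hearts and 3.17, 2.80 and 2.45 RPKM in KI TAC hearts. These groups did not overlap either, and the log2 fold change of -0.48 (SE 0.20) did not pass (adjusted p = 0.0923).

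Srsf3, the smallest SR protein and a regulator of alternative polyadenylation and export as well as splicing (chr17:29032628-29043373), was 3.83, 3.11 and 2.80 RPKM in KI sham hearts and 4.65, 5.97 and 4.85 RPKM in KI TAC hearts. The log2 fold change was 0.54 (SE 0.15, adjusted p = 0.0221), and it was not called when KI sham mouse 2 or 3 or mouse 6 of the KI TAC group was left out. WT sham hearts had 2.84, 3.09 and 3.21 RPKM and WT TAC hearts 3.16, 4.06 and 3.98 RPKM, which overlapped. Srsf2, at chr11:116849901-116853094, was the most abundant SR protein, with a mean of 80.4 RPKM, and recognises exonic enhancers throughout the transcriptome. It measured 75.5, 72.9 and 55.6 RPKM in WT sham, 97.7, 111 and 73.7 in WT TAC, 74.7, 77.3 and 62.5 in KI sham and 86.0, 69.2 and 109 in KI TAC hearts. Sham and TAC hearts overlapped in both genotypes, and the log2 fold change in WT hearts, 0.46 (SE 0.22), did not pass (adjusted p = 0.196).

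None of the 7 CLK and SRPK kinases passed limma's test in any comparison. At an unadjusted p under 0.05 there were 0, 1 and 1 of them for TAC in WT, TAC in KI, and KI TAC against WT TAC, where 27.9%, 36.8% and 30.3% of all genes had one, and the median log2 fold changes were 0.07, 0.02 and 0.05, with the first at -0.01 after quantile normalization. Clk4, a nuclear kinase of SR proteins at chr11:51261730-51281766, was the nearest to a call. Its RNA was 2.73, 2.82 and 2.92 RPKM in KI sham hearts and 3.51, 4.37 and 3.85 RPKM in KI TAC hearts, which did not overlap, a difference of 0.36 (95% interval 0.05 to 0.67, adjusted p = 0.0875). In WT hearts it was 2.46, 2.84 and 2.99 RPKM after sham surgery and 2.46, 2.90 and 3.53 RPKM after TAC. Clk4 and Srpk1 did pass in KI hearts after median-ratio scaling and after quantile normalization, and Clk4 was then also called for KI TAC against WT TAC. Clk3 was called in KI hearts when KI TAC mouse 7 was left out (-0.36 with that mouse and -0.61 without it).

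Clk1 (chr1:58410189-58424066) encodes the founding member of the same kinase family. Its level was 3.53, 4.76 and 4.25 RPKM in WT sham, 3.06, 3.67 and 4.11 in WT TAC, 3.65, 5.02 and 4.93 in KI sham and 3.80, 5.01 and 5.02 in KI TAC hearts. The groups overlapped in each comparison, and the 95% interval of the log2 fold change was -0.53 to 0.20 in WT hearts and -0.34 to 0.38 in KI hearts. Srpk3 (chrX:73774405-73778925), the muscle-specific SRPK and with a mean of 9.04 RPKM the most abundant of the 7 kinases, was 10.0, 8.64 and 7.79 RPKM in WT sham and 11.5, 7.89 and 9.90 RPKM in WT TAC hearts. In KI hearts it was 8.82, 10.5 and 9.43 RPKM after sham surgery and 6.19, 9.38 and 8.40 RPKM after TAC, a difference of -0.25 (95% interval -0.65 to 0.15). Srpk2 was 6.34 RPKM in KI TAC mouse 5 and 1.85 to 3.59 RPKM in the other 11 hearts, and its log2 fold change in KI hearts was 0.45 with that mouse and 0.10 without it.

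The hnRNPs held 8 of the 11 members that rose in KI hearts and 1 of the 3 that rose in WT hearts. In KI hearts 8 of 19 (42.1%) rose after TAC and 0 fell, against 8.57% and 14.7% of all genes, and after TAC 3 (15.8%) were higher and 0 lower in KI than in WT mice, against 2.92% and 8.13%. In WT hearts 1 (5.26%) rose and 0 fell, no more than the 6.96% and 4.60% of all genes. Values were above 0 for 18 of 19 in KI hearts with a median of 0.41, for 16 of 19 in WT hearts with a median of 0.23, and for 17 of 19 between the genotypes after TAC with a median of 0.26. These 3 medians were 0.55, 0.20 and 0.42 after median-ratio scaling, so their sign did not depend on it. The counts did, with 11 higher in KI hearts, 1 in WT hearts and 10 between the genotypes on that scale (13.8%, 6.48% and 6.70% of all genes), and 10, 1 and 6 after quantile normalization (12.1%, 6.68% and 4.65%).

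Hnrnpa3 and Hnrnpa1 had the largest log2 fold changes of the hnRNPs in KI hearts. Hnrnpa3 (chr2:75659261-75669407), which binds UAGG-type motifs like its relatives, was the only one of the 47 members called in all 3 comparisons. It rose from 2.75, 2.89 and 3.36 RPKM in WT sham hearts to 4.91, 5.71 and 6.43 RPKM in WT TAC hearts, and from 3.79, 4.70 and 3.60 RPKM in KI sham hearts to 7.38, 10.3 and 8.93 RPKM in KI TAC hearts. No group overlapped another of these, and the sham hearts of KI mice already lay above those of WT mice. Limma gave a log2 fold change of 0.74 (SE 0.16, adjusted p = 0.0114) in WT hearts, 0.97 (SE 0.16, adjusted p = 0.00119) in KI hearts and 0.56 (SE 0.16, adjusted p = 0.0450) for KI TAC against WT TAC. The WT and KI calls held without any single mouse, whereas the last did not survive the loss of mouse 7 or 9 of the WT TAC group or of mouse 6 or 7 of the KI TAC group, and was also lost without the filter on low genes or, like the other calls of this comparison, in a fit of those groups alone.

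Hnrnpa1 (chr15:103240432-103246692), a repressor that binds exonic and intronic silencers, was 5.87, 9.06 and 7.84 RPKM in KI sham and 13.6, 17.9 and 15.1 RPKM in KI TAC hearts. In WT hearts it was 6.82, 5.73 and 6.06 RPKM after sham surgery and 6.78, 8.43 and 10.4 RPKM after TAC. The KI TAC hearts lay above all 9 others, with a log2 fold change of 0.95 (SE 0.19, adjusted p = 0.00341) against KI sham and 0.80 (SE 0.19, adjusted p = 0.0221) against WT TAC. In WT hearts the groups overlapped and the difference of 0.39 (SE 0.19) did not pass (adjusted p = 0.202). The call against KI sham held without any single mouse, and that against WT TAC was lost when WT TAC mouse 7 or KI TAC mouse 6 was left out.

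Hnrnpa2b1 (chr6:51460932-51469894), a splicing repressor that also sorts RNAs, was called only between the genotypes after TAC. It stood at 11.1, 11.5 and 17.2 RPKM in WT TAC hearts and 17.6, 26.3 and 20.97 RPKM in KI TAC hearts, a log2 difference of 0.67 (SE 0.20, adjusted p = 0.0467) that was not called when mouse 7 or 9 of WT TAC, or mouse 6 or 7 of KI TAC, was left out. Sham hearts held 12.8, 11.99 and 12.4 RPKM in WT and 12.9, 17.1 and 14.9 RPKM in KI mice. TAC in KI hearts gave 0.49 (SE 0.20) without overlap and without a call (adjusted p = 0.0912), and the WT groups overlapped.

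Hnrnpab (chr11:51600100-51606847), a relative of Hnrnpd that binds RNA and single-stranded DNA, was 25.8, 34.3 and 30.8 RPKM in KI sham and 49.6, 52.3 and 58.0 RPKM in KI TAC hearts, a log2 fold change of 0.80 (SE 0.17, adjusted p = 0.00522). WT hearts held 35.5, 26.8 and 27.6 RPKM after sham surgery and 40.7, 39.6 and 40.8 RPKM after TAC. TAC hearts lay above sham hearts in both genotypes, and the WT difference of 0.43 (SE 0.17) did not pass (adjusted p = 0.127). Hnrnpf (chr6:117900324-117925622), which binds G-runs, rose from 2.85, 2.99 and 2.78 RPKM in KI sham hearts to 5.11, 5.30 and 6.09 RPKM in KI TAC hearts (log2 fold change 0.74, SE 0.15, adjusted p = 0.00328). In WT hearts it was 3.80, 2.64 and 2.73 RPKM after sham surgery and 4.12, 3.81 and 4.57 RPKM after TAC, without overlap and without a call.

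Hnrnpu (chr1:178321108-178337797), a scaffold protein that binds RNA and DNA, was 9.63, 8.96 and 9.11 RPKM in KI sham and 13.8, 14.1 and 16.5 RPKM in KI TAC hearts. It was 9.84, 8.17 and 8.11 RPKM in WT sham and 11.4, 12.9 and 10.9 RPKM in WT TAC hearts, again apart in both genotypes. Its log2 fold change was 0.62 (SE 0.15, adjusted p = 0.00985) in KI and 0.40 (SE 0.15, adjusted p = 0.106) in WT hearts. Hnrnph2 (chrX:134601179-134607060), a relative of Hnrnpf, stood at 1.60, 2.03 and 2.05 RPKM in KI sham and 2.24, 3.76 and 3.57 RPKM in KI TAC hearts, a change of 0.52 (SE 0.17, adjusted p = 0.0400). In WT hearts it was 1.81, 1.54 and 1.88 RPKM after sham surgery and 2.08, 1.91 and 2.78 RPKM after TAC. Hnrnpk and Hnrnpd also rose in KI hearts, by 0.51 (adjusted p = 0.0337) and 0.41 (adjusted p = 0.0378) on the log2 scale. The calls of Hnrnpab, Hnrnpf and Hnrnpu in KI hearts held without any single mouse, and each of those of Hnrnph2, Hnrnpk and Hnrnpd survived the loss of only 1 of the 6 mice.

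The most abundant hnRNP passed in no comparison. Hnrnpa0 (chr13:58125879-58128556), which stabilises stress-responsive mRNAs, was 194, 106 and 90.4 RPKM in WT sham, 171, 161 and 90.8 in WT TAC, 118, 153 and 100 in KI sham and 166, 105 and 140 in KI TAC hearts. The log2 fold change was 0.14 in both genotypes, ran from -0.077 to 0.47 in WT and from -0.0065 to 0.32 in KI hearts when each mouse was left out, and the hearts of 1 group differed among themselves by as much as the groups did.

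**Figure D3:**
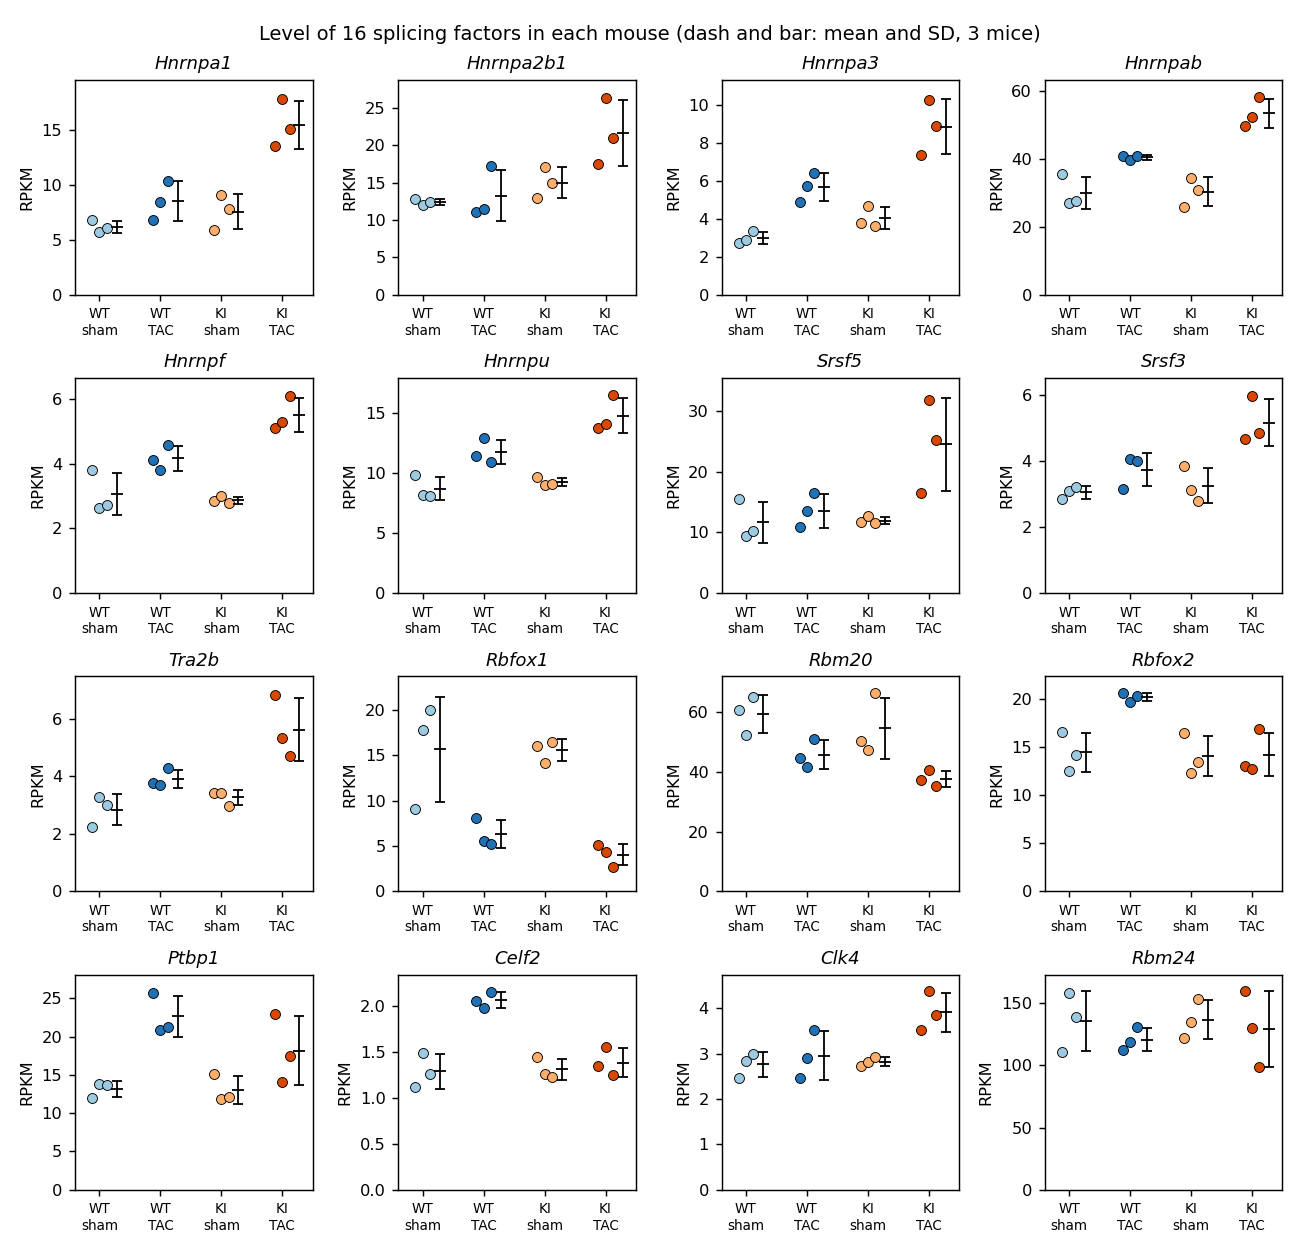
Level in RPKM (vertical axes, from 0) of 16 splicing factors in each mouse (points) of the 4 groups (3 mice each), with the mean and SD beside them. Hnrnpa1 and Hnrnpa3 are above the other 9 hearts in all 3 KI TAC hearts, Rbfox1 is lower in TAC than in sham hearts, and Rbfox2 and Celf2 are higher in WT TAC hearts than in the other groups.

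The tissue regulators did not move together. In WT hearts TAC raised Ptbp1 and Celf2 (22.2%) and lowered Rbfox1 (11.1%), where 6.96% of all genes rose and 4.60% fell. In KI hearts TAC lowered Rbfox1 alone of the 9 (11.1%), where 14.7% of all genes fell. Between KI TAC and WT TAC 0 of 9 passed, with 2 at an unadjusted p under 0.05 (30.3% of all genes). The median log2 fold change was 0.38 in WT and 0.01 in KI hearts. Between the genotypes after TAC it was -0.33, with 8 of 9 below 0 and 5 of them (Celf2, Mbnl1, Rbfox1, Rbfox2 and Rbm20) lower in every KI TAC heart than in every WT TAC heart, as were 19.4% of all genes. That median was -0.14 after median-ratio scaling, with 7 of 9 below 0.

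Rbfox1 (chr16:5885355-7411526), the RBFOX protein of muscle and brain that binds UGCAUG, had the largest change of all members. It fell from 9.08, 17.8 and 19.997 RPKM in WT sham to 8.05, 5.58 and 5.23 RPKM in WT TAC hearts, and from 15.96, 14.1 and 16.4 RPKM in KI sham to 5.06, 4.35 and 2.73 RPKM in KI TAC hearts. Group means were thus 15.6 ± 5.77 and 6.29 ± 1.54 RPKM in WT and 15.5 ± 1.22 and 4.05 ± 1.19 RPKM in KI mice (SD, n = 3). TAC and sham hearts did not overlap in either genotype, although WT sham mouse 1, which had the low mitochondrial share, lay close to WT TAC mouse 7. The log2 fold change was -1.14 (SE 0.27, adjusted p = 0.0143) in WT and -1.74 (SE 0.27, adjusted p = 0.000635) in KI hearts. The KI call held without any single mouse, while the WT call was lost without WT sham mouse 2 or 3 (adjusted p at most 0.0694) and the WT value reached -1.47 without mouse 1. All 3 KI TAC hearts were below the WT TAC hearts, by -0.54 (SE 0.27), which did not pass (adjusted p = 0.187).

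Its paralog Rbfox2 took another course. It was 16.6, 12.5 and 14.2 RPKM in WT sham and 20.6, 19.7 and 20.2 RPKM in WT TAC hearts, and 16.4, 12.3 and 13.4 RPKM in KI sham and 13.0, 12.7 and 16.8 RPKM in KI TAC hearts. The WT TAC hearts lay above all 9 others, yet neither the WT difference of 0.46 (SE 0.17, adjusted p = 0.0991) nor the difference of -0.49 (SE 0.17, adjusted p = 0.0815) between KI TAC and WT TAC passed. The latter was called when KI TAC mouse 7, the highest of its group, was left out (-0.61).

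Celf2 (chr2:6539694-7509563), a CUG-binding regulator that is abundant in the immature heart, was also highest in WT TAC hearts, at a low level. Its RNA was 1.12, 1.49 and 1.26 RPKM in WT sham, 2.05, 1.98 and 2.16 in WT TAC, 1.44, 1.26 and 1.22 in KI sham and 1.35, 1.56 and 1.24 in KI TAC hearts. The log2 fold change in WT hearts was 0.42 (SE 0.12, adjusted p = 0.0376), a call lost whichever of the 6 mice was left out, after quantile normalization and in a fit of the WT groups alone, and that in KI hearts 0.04 (SE 0.12). Between KI TAC and WT TAC the difference was -0.36 (SE 0.12, adjusted p = 0.0651).

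Ptbp1 (chr10:79854427-79864771), a repressor of neuronal and muscle exons, was 12.01, 13.8 and 13.6 RPKM in WT sham and 25.8, 20.9 and 21.3 RPKM in WT TAC hearts. The WT groups did not overlap, with a log2 fold change of 0.74 (SE 0.19, adjusted p = 0.0236), a call that was lost without any 1 of the WT sham mice or without WT TAC mouse 7, and after median-ratio scaling (adjusted p = 0.0515). KI hearts held 15.2, 11.8 and 12.1 RPKM after sham surgery and 23.0, 14.03 and 17.5 RPKM after TAC, which overlapped, and the difference of 0.43 (SE 0.19) did not pass (adjusted p = 0.118).

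The muscle regulators linked to cardiomyopathy were near or short of the threshold. Rbm20 (chr19:53677306-53867080) was 60.7, 52.2 and 65.0 RPKM in WT sham, 44.6, 41.5 and 51.1 in WT TAC, 50.2, 47.3 and 66.2 in KI sham and 37.1, 40.5 and 35.1 in KI TAC hearts. TAC hearts lay below sham hearts in both genotypes, by -0.37 (SE 0.18, adjusted p = 0.206) in WT and -0.51 (SE 0.18, adjusted p = 0.0555) in KI mice. Rbm24 (chr13:46418434-46431095), with a mean of 131 RPKM the most abundant of the 9, was 111, 159 and 139 RPKM in WT sham, 113, 119 and 131 in WT TAC, 122, 135 and 153 in KI sham and 159, 130 and 98.7 in KI TAC hearts, and the groups overlapped throughout.

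Without any test, complete separation of the 3 hearts of a group from the 3 of the other was common among the members. After TAC 20 were apart and higher and 3 apart and lower in WT hearts, where 20.0% and 15.0% of all genes were. In KI hearts 19 were apart and higher and 3 lower, against 13.6% and 24.7% of all genes. Between KI TAC and WT TAC 10 were higher and 6 lower, against 10.1% and 19.4%. An exact permutation test of 3 against 3 mice cannot give a two-sided p below 0.1, so no call rests on separation alone.

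KI and WT hearts did not differ in these genes after sham surgery by limma's test. The differences ran from -0.13 (Rbm20) to 0.33 (Hnrnpa3) on the log2 scale, 0 of 47 members had an unadjusted p under 0.05 (0.329% of all genes), and 0.0178% of all genes were called. Hnrnpa3, Hnrnpa2b1 and Hnrnph1 were higher in each KI sham heart than in each WT sham heart, against 2.08% of all genes. Fits with limma-voom on the recovered reads also called 0 members.

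Whether the response to TAC itself differed between genotypes was tested as the interaction, and 0 of 47 members passed with limma or limma-voom, as did 0.00% of all genes. The interaction was above 0 for 28 of the 47 members, with a median of 0.04 beside -0.13 over all genes. The 11 members that rose in KI hearts, and were chosen by that response, had log2 fold changes of 0.22 to 0.74 in WT hearts. One member had an unadjusted p under 0.05 (14.8% of all genes), Celf2, with an interaction of -0.38 (95% interval -0.75 to -0.01, adjusted p = 0.326). For Srsf5 the interval was -0.03 to 1.46, for Hnrnpa1 -0.02 to 1.14 and for Rbfox1 -1.40 to 0.21. The intervals of Srsf5 and Hnrnpa1 hold both 0 and a difference as large as their KI response, and that of Rbfox1 holds 0, so the members called in 1 genotype were not shown to respond differently from the other.

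In KI hearts the shares of core spliceosome and SR-related genes that rose were near the 8.57% of all genes. Of 65 core spliceosome genes, TAC in KI hearts raised 7 (10.8%) and lowered 1, and KI TAC against WT TAC showed Sf3b1 higher and Prpf8 lower (1.04 and -0.65). The largest increases in KI hearts were of Sf3b1, the branch-point binding subunit of the U2 particle (1.11, adjusted p = 0.00208), U2af1 (0.68) and Snrpa1 (0.67), and the decrease was of Prpf19 (-0.69). Of 23 SR-related proteins, Ccnl1 (0.63) and Luc7l (0.40) rose (8.70%) and Rsrp1 (-1.19) fell in KI hearts, with 0 called in WT hearts or between the genotypes after TAC and unadjusted p under 0.05 for 2 in WT hearts and 3 between the genotypes after TAC (27.9% and 30.3% of all genes). Of 28 other RNA-binding regulators, Ptbp3 (0.68) and Ptbp2 (0.59) rose in WT hearts (7.14%, near the 6.96% of all genes), and 4 including Ptbp2 (0.76) and Syncrip (0.66) rose in KI hearts (14.3%). After median-ratio scaling 13 core spliceosome genes, 5 SR-related genes and 9 other regulators rose in KI hearts, where 13.8% of all genes did. The values beside gene names are log2 fold changes.

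Among 10 other kinases and phosphatases of SR proteins, Dyrk1b fell in both genotypes (-0.78 in WT and -1.43 in KI). This is 10% of that list, where 4.60% of all genes fell in WT and 14.7% in KI hearts. Of 13 genes of the exon junction complex and nonsense-mediated decay, Magoh rose in KI hearts (0.66), which is 7.69% of that list against 8.57% of all genes. Of 10 genes whose splicing RBM20 regulates, Rtn4 rose by 2.36 in WT and by 1.27 in KI hearts and was lower in KI mice than in WT mice after TAC (-0.94), Pdlim5 rose in WT hearts (1.28) and Cacna1c, the L-type calcium channel, fell in KI hearts (-0.78). The share that rose in WT hearts was 20%, against 6.96% of all genes. In KI hearts 10% rose and 10% fell, against 8.57% and 14.7%, and after TAC 10% were lower in KI than in WT mice, against 8.13%. The median of those 10 was 0.20 in WT and -0.24 in KI hearts. Rbm3, a cold-inducible RNA-binding protein, rose in KI hearts (1.19, adjusted p = 0.00379).

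Other programmes and cell type markers also differed between the groups. The summed level of 15 circadian clock genes was 259 to 368 RPKM in WT sham, 181 to 326 in KI sham, 157 to 217 in WT TAC and 159 to 214 RPKM in KI TAC hearts. TAC lowered 2 of 15 in WT and 3 of 15 in KI hearts, where 4.60% and 14.7% of all genes fell. In KI TAC against WT TAC 1 of the 15 was called higher (2.92% of all genes). The summed level of 10 heat shock genes was 394 to 454 RPKM in WT sham, 397 to 504 in KI sham, 584 to 1427 in WT TAC and 1891 to 9372 RPKM in KI TAC hearts. TAC raised 6 of 10 in KI hearts and 1 of 10 in WT hearts, where 8.57% and 6.96% of all genes rose. The highest sum was in KI TAC mouse 5. The sum of 7 glucocorticoid-responsive genes was 85.0 to 505 RPKM in WT TAC and 548 to 1271 RPKM in KI TAC hearts, with 220 to 259 in KI sham and 94.1 to 185 in WT sham hearts. Of these 7, 6 were called higher in KI TAC against WT TAC (2.92% of all genes). TAC raised 4 of them in KI hearts and lowered 1 in WT hearts, against 8.57% and 4.60% of all genes. The 3 neutrophil markers in the table (of 5) summed to 0.395 to 1.27 RPKM in the sham hearts and 3.69 to 20.3 RPKM in the TAC hearts. Macrophage and monocyte markers (5 of 6) summed to 36.7 to 49.7 RPKM in the sham hearts, 48.3 to 88.3 RPKM in WT TAC and 38.7 to 50.2 RPKM in KI TAC hearts. Of the 4 tested, 2 were called higher in WT hearts and 1 lower in KI hearts (6.96% and 14.7% of all genes). In KI TAC against WT TAC 2 of these 4 were called lower (8.13% of all genes). The 6 fibroblast markers summed to 610 RPKM in WT TAC mouse 10 and 92.2 to 271 RPKM in the other 11 hearts, with Lum called lower in KI hearts (-1.14). The 5 endothelial markers summed to 249 to 306 RPKM in WT TAC, 321 to 355 in KI TAC and 261 to 353 RPKM in the sham hearts. Of these 5 only Fabp4 was called, higher with TAC in KI hearts (1.43) and in KI TAC against WT TAC (1.80). Its level was 18.0, 31.5 and 26.3 RPKM in WT TAC and 62.5, 121 and 91.7 RPKM in KI TAC hearts. Pecam1 was also higher in every KI TAC heart than in every WT TAC heart, whereas Cdh5, Kdr and Tie1 overlapped. The higher sums in KI TAC hearts thus rest largely on Fabp4. With TAC in KI hearts 2 of the 5 markers were above 0 (median -0.04). The 3 erythroid markers summed to 57.6 to 83.5 RPKM in WT TAC and 74.8 to 196 RPKM in the other hearts, and 4 smooth muscle and pericyte markers to 111 to 210 RPKM in WT TAC and 85.0 to 153 RPKM in the other hearts. The 8 cardiomyocyte markers summed to 13510 to 23563 RPKM, with 16537 to 22956 in KI TAC and 13510 to 23563 in WT TAC hearts, and most of each sum was Actc1. Their median log2 fold change was -0.59 in WT hearts (7 of 8 below 0, Myh6 called at -1.15), 0.06 in KI hearts (Pln called at -0.93) and 0.71 for KI TAC against WT TAC, where Tnni3 (0.95) and Myl2 (0.86) were called higher. The part of any of these in the changes of the splicing factors was not tested.

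Several members share sequence with other loci. Pseudogene transcripts at least 95% identical over at least 300 bases were annotated for 12 members, 9 of the 15 that passed a test and 3 of the other 33, among them the untested Hnrnpr. Hnrnpa3 had 25 such copies, Hnrnpa1 8, Hnrnpf 6, Tra2b 4, Srsf3 3, Hnrnpk 2, and Hnrnph2, Ptbp1 and Srsf5 1 each. How reads were split between gene and copy is not given in the sources used here, so the levels of these genes are uncertain to that extent, while Hnrnpa2b1, Hnrnpab, Hnrnpd, Hnrnpu, Celf2 and Rbfox1 had no such copy. Exons of 16 members overlap a gene on the opposite strand, such as 748 bases of Srsf2, 809 of Hnrnpab, 806 of Hnrnpf, 804 of Hnrnpu, 983 of Ptbp1 and 1961 of Celf2, and 4 overlap a gene on their own strand. The libraries were strand-specific, but the strand setting of the counting is not given in the sources used here.

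The count of members that rose in KI hearts rests in part on single mice. It was 5 to 10 when each mouse was left out, with 6 members called in all without KI sham mouse 3 and 7 without KI TAC mouse 6. Hnrnpa1, Hnrnpa3, Hnrnpab, Hnrnpf, Hnrnpu and Rbfox1 were called in all 6 of those fits and under all 8 settings of scale, filter, pseudocount and model. Fitting the KI groups alone ended the KI calls of Srsf3, Hnrnpd, Hnrnph2 and Hnrnpk. Between KI TAC and WT TAC the count of 3 became 0 when WT TAC mouse 7 or KI TAC mouse 6 was left out and 1 for WT TAC mouse 9, and in WT hearts the 4 calls became 1, Hnrnpa3, without WT sham mouse 2 or 3, and 2 without WT sham mouse 1 or WT TAC mouse 7.

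**Figure D4:**
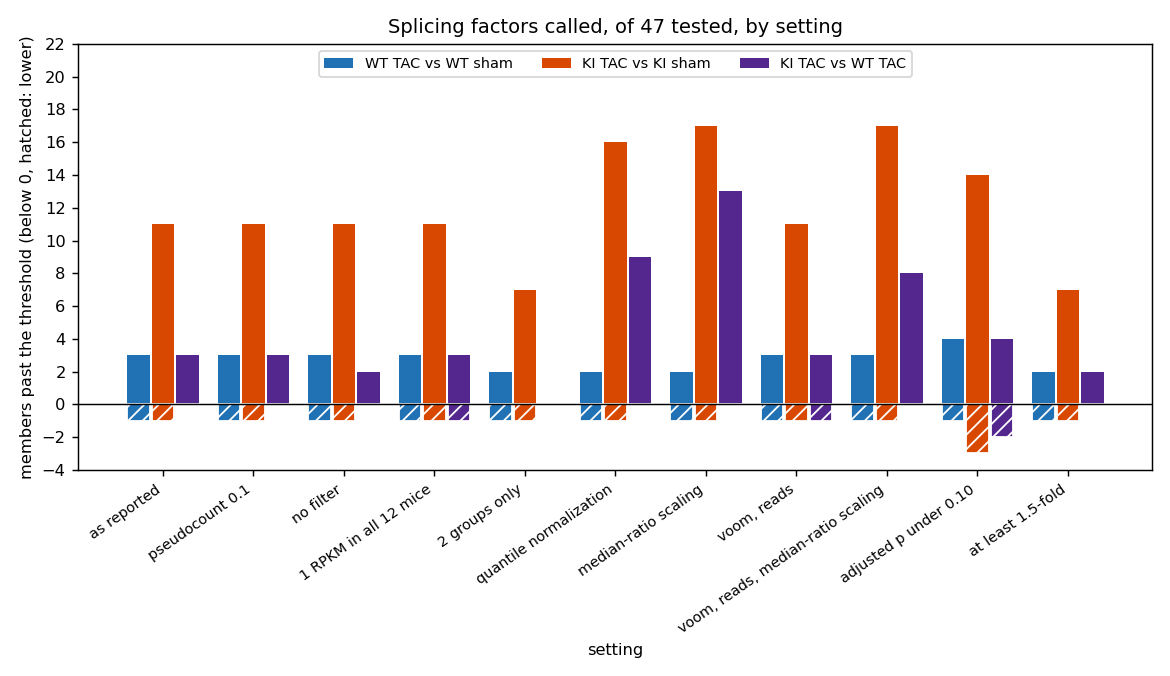
Number of splicing factors past the threshold (vertical axis; higher above 0, lower hatched below 0) of 47 tested, by setting (horizontal axis) and comparison (colours). The bars for KI TAC against KI sham reach 17 after median-ratio scaling and 7 when only the mice of 2 groups are fitted, and those for KI TAC against WT TAC run from 0 to 13.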

How the data were processed

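Poly(A) RNA of 12 hearts was sequenced as 75-base single reads from strand-specific libraries. Per the labels and methods, the authors used Trimmomatic 0.39, HISAT2 2.2.1 (GRCm38), HTSeq 0.6.1, edgeR 3.18.1 and limma 3.32.10. The deposited values are RPKM by their structure. The step from counts to RPKM and the filter on genes are not given in the sources used here. Low values were whole multiples of 1 read within 0.05 read for 96.0% to 98.0% of 600 values per mouse, which gave the depth.

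Groups came from the genotype and treatment labels. A fit of 4 groups to log2(RPKM + 1), a scale that understates changes of low genes, was made in R 4.3.3 with lmFit and trended eBayes of limma 3.58.1 for genes with 1 RPKM or above in a minimum of 3 mice, with Benjamini-Hochberg adjustment over all 11240. The model was tested on simulated data. The members and gene lists were chosen with earlier results of these data known. Values in every mouse are given for up to 10 members per comparison with the largest change past the threshold, the most abundant of each family, and Rbm20, Rbm24, Clk1, Clk4 and Srpk3. Rbfox2, Tra2a and Srpk2 were added after their values were seen. From other lists at most 3 genes per direction and comparison are named, and 2 genes of these lists are not reported here. Annotation was GENCODE M21, copies were found with BLAST 2.17.0, and tables and plots were made with Python 3.11.15, pandas 2.3.3, numpy 2.4.6 and matplotlib 3.10.9. Alternatives were other pseudocounts, filters, scalings, thresholds, fits of 2 groups and leaving out each mouse. limma-voom on reads recovered from the RPKM values was added after seeing the data.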

Additional observations from a re-analysis of the deposited data

How the results depend on the processing

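The number of splicing factors called depended on scaling and on the mice fitted. For KI TAC against KI sham, the 11 higher became 17 with median-ratio scaling, 17 with limma-voom and median-ratio scaling (an alternative chosen after seeing the data), 7 in a fit of the 2 groups alone and 7 with a minimum of 1.5-fold, and the 1 lower became 3 at an adjusted p under 0.10. For KI TAC against WT TAC, the 3 called, all higher, became 9 with quantile normalization, 13 with median-ratio scaling, 8 with limma-voom and median-ratio scaling and 0 with 2 groups alone. At an adjusted p under 0.10 it was 6, of which 2 lower, and 1 lower (Celf2) was called at 1 RPKM in all 12 mice and with limma-voom. Leaving out 1 mouse gave 1 to 3 calls for TAC in WT hearts (1 to 2 higher, 0 to 1 lower), 6 to 11 in KI hearts (5 to 10 higher, 1 to 2 lower) and 0 to 4 between KI TAC and WT TAC (0 to 4 higher, 0 to 1 lower). It gave 0 for the sham hearts and for the interaction.

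Mouse numbers are shared by the WT sham and KI sham groups, and only number 7 by WT TAC and KI TAC. The deviations of same-numbered sham mice correlated at -0.22, -0.30 and 0.44, so the numbers were not taken to pair them. With the number as a replicate block, 0 members were called, as without it. No paired analysis of the other comparisons was possible because their groups share fewer than 2 numbers. Of 406 alternative values of members called or named by rule, 340 kept direction and side of the threshold, 55 lost the call, 3 gained one and 8 changed sign, none of them called. In WT hearts Clk4 (0.07) became -0.0066 with quantile normalization, and ran from -0.034 to 0.16 when each mouse was left out. In KI hearts Clk1 (0.02) ran from -0.099 to 0.13 and Rbm24 (-0.10) from -0.26 to 0.079 when each mouse was left out, and Rbm24 became 0.066 with median-ratio scaling and 0.039 with limma-voom and median-ratio scaling. Outside these, with 1 mouse left out, Celf2 in KI hearts (0.04) reached -0.0085 and Hnrnpa0 (0.14 in both genotypes) reached -0.077 in WT and -0.0065 in KI hearts. With 3 mice a group, differences near 0.4 on the log2 scale often missed the threshold.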
